A study of Mus musculus with 8 samples.

Results

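Macrophages and other leukocytes of the embryonic mouse pancreas were followed through 34 genes that mark or equip them, among 19938 genes measured on microarrays of pancreatic buds. The genes were a list of names chosen with earlier results of these data known. Each was read from the probe set that carries that symbol and no other. The probe set with the highest mean would have stood for a gene with several. All 34 were measured, each by 1 probe set. The labels give 4 RNA pools from buds of e12.5 embryos. The VEGF pool held freshly isolated buds of 3 embryos with Pdx1-tTA and TET-VEGF. The former expresses a tetracycline-controlled transactivator from the Pdx1 promoter, active in pancreatic progenitors, and the latter is a VEGF transgene under its control. The control pool held buds of 3 littermates with Pdx1-tTA alone, so the transactivator was common to both. A further pair of pools held wild-type buds, 5 in each, explanted and cultured for 2 days with VEGFR2i, an inhibitor of VEGF receptor 2, or with vehicle.

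Each pool was hybridized to 2 arrays, the second labelled a technical repeat. Every condition was therefore 1 pool, no test of a condition was possible, and the SDs printed here (n = 2 arrays) cover hybridization error only. Values are log2 expression after robust multi-array averaging, and a difference is one of pool means, followed where given by its range over the 4 pairs of arrays. The size rule used for calls required pool means at least 1.5-fold apart, which is 0.58 on the log2 scale, with no overlap between the arrays of the pools. Between the arrays of a single pool no member differed by that much, the widest gap being 0.41 for Cybb in the VEGF pool. The direction of the explant comparison goes against its labels: of 18 endothelial genes, which an inhibitor of this receptor would be expected to lower, all 18 had the higher level in explants labelled VEGFR2i and 17 passed the size rule, with Pecam1 at 7.70 against 4.31, Cdh5 at 8.66 against 4.56 and Kdr, the gene of the receptor itself, at 8.12 against 6.02. The labels were kept as they stand, and all directions follow them.

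Macrophages reach the organs of the mouse embryo early, first from the yolk sac and then from the fetal liver. The transcription factor PU.1, the product of Spi1, commits cells to the lineage, and the growth factor receptor encoded by Csf1r keeps them alive. They engulf dying cells, secrete complement and proteases and settle beside vessels, and mice without functional Csf1 have few macrophages in the pancreas and a smaller beta cell mass. Since PU.1 binds many promoters of these cells, the promoter windows of the members were searched for the letters GAGGAAGT, a form of its binding motif, and for the reverse complement ACTTCCTC. RefSeq windows of the build GRCm38.p6, from 250 bases before to 50 bases after a gene's start, matched 26 of the 34 members. Those not matched were Adgre1, C1qa, Cd14, Csf1r, Itgb2, Msr1, Spi1 and Tyrobp.

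The motif lay in 5 of the members' 31 windows, those of Cd53, Ctss, C1qc, Cyth4 and F13a1, against 3.2% of all 32851 windows. A match is a description of letters and not a binding site. The windows of the 3 genes of this set with the largest differences between the explant pools are printed 5′ to 3′ on the strand of the gene, with the match in capitals. In Cd53 (chr3:106790100-106790399, minus strand) the match began 6 bases after the start, in Ctss (chr3:95526536-95526835, plus strand) 2 bases before it, and in C1qc (chr4:136892865-136893164, minus strand) 195 bases before it.
Cd53: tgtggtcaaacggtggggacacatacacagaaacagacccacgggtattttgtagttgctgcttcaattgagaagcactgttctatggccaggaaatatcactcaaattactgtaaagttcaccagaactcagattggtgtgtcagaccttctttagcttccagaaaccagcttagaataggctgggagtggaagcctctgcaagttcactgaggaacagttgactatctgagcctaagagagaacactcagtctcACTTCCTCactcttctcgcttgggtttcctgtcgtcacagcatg
Ctss: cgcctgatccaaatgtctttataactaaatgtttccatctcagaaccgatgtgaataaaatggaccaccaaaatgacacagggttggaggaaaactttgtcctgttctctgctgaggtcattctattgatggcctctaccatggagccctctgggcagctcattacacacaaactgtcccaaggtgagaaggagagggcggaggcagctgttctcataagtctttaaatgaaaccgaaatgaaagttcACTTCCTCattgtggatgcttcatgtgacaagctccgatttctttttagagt
C1qc: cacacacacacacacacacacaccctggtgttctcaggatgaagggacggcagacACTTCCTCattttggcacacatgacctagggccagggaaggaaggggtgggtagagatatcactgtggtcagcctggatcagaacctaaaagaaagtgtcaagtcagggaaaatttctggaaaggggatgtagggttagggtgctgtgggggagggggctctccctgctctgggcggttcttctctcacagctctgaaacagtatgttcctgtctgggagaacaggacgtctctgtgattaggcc

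As a guide to what the arrays could detect, 1190 olfactory and vomeronasal receptor genes were taken as silent in the bud. The level that 95% of them stayed under, called the background level here, was 3.33 in both bud pools and 3.37 and 3.42 in the explants labelled VEGFR2i and vehicle. By this measure 31 of the 34 members were above background in all 4 pools. Cd163, a scavenger receptor for haemoglobin bound to haptoglobin, was above it in no pool, with all 8 arrays between 2.95 and 3.12. Msr1 was at background in the buds alone, and Ngp was at background in the VEGF pool alone. Markers of lymphocytes were mostly at the same floor: 2 of 9 T and NK cell genes and 1 to 2 of 5 B cell genes were above background in any pool, and class II antigen presentation genes had 2 to 3 of 6.

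**Figure D1:**
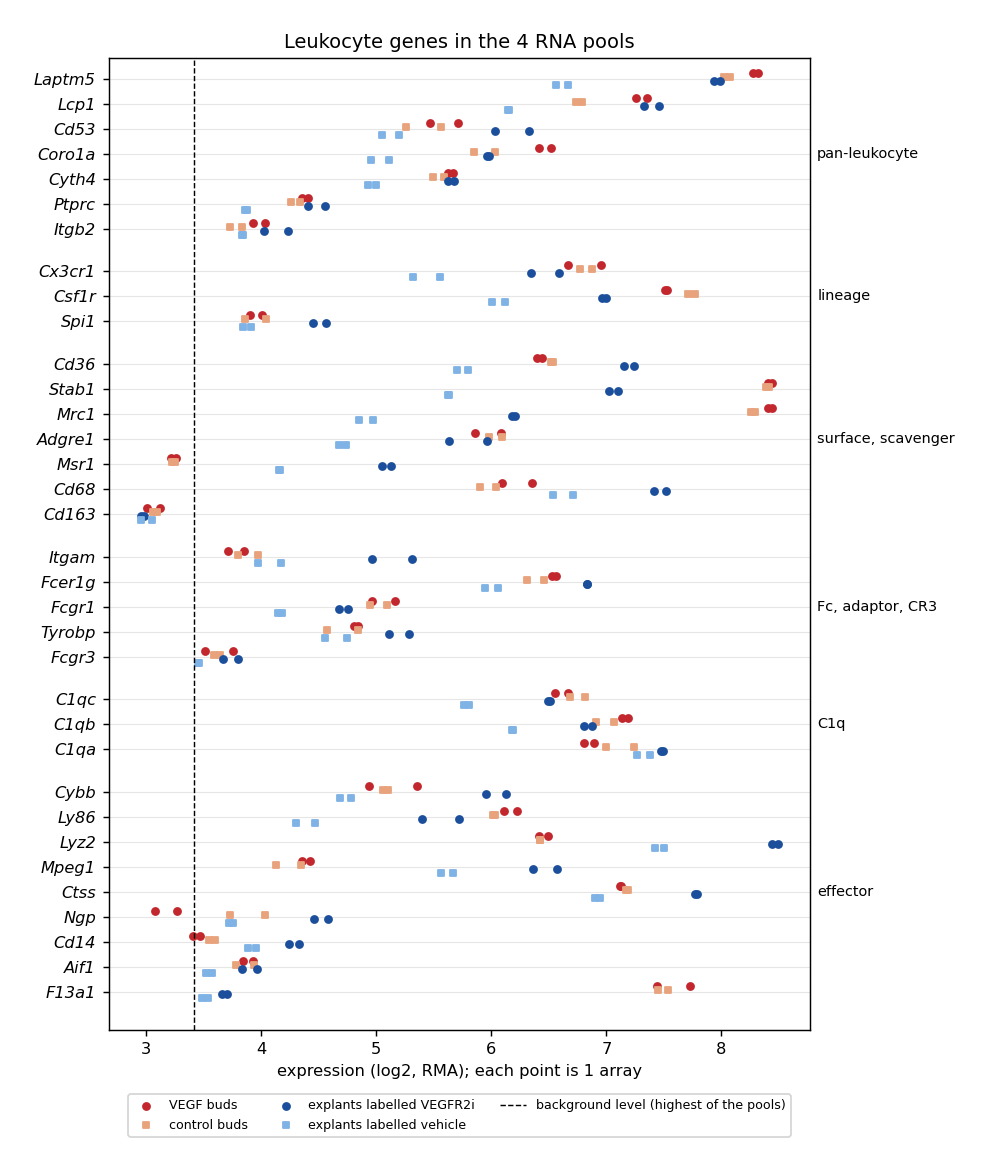
Expression of the 34 genes on each of the 8 arrays (x axis, log2, RMA), grouped by role, with red points for VEGF buds, orange squares for control buds, dark blue points for explants labelled VEGFR2i and light blue squares for explants labelled vehicle. The dashed line is the background level of 3.42, the highest of the pools, and only Cd163 lies below it on all arrays. Levels of different genes are not comparable with each other because each has its own probes.

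The first comparison asked whether added VEGF in the Pdx1 territory went with a different leukocyte content of the bud. Macrophage genes were close to level between VEGF and control buds: no member was higher by the size rule, 1 was lower, and the median difference over the 34 was 0.04, against 0.00 over all genes. The background was 0.552% of all genes higher and 0.933% lower. Among the 14736 genes above the background level in their higher pool, the shares were 0.746% and 1.26%, with the members' counts as before. At 2-fold no member was called, against 0.0602% of genes higher and 0.191% lower. By the methods' t-test, which over these arrays measures hybridization error alone, 0 members passed with 1.5-fold unadjusted (genes 0.517% higher, 0.843% lower) and 0 after Benjamini-Hochberg adjustment (0% of genes in either direction). In a pool of bud RNA, fewer cells of a type and less RNA per cell cannot be told apart.

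The lineage genes showed how small the differences were. Csf1r was at 7.53 and 7.51 on the VEGF arrays and 7.77 and 7.71 on the control arrays, a difference of -0.22 [-0.26, -0.18]. Its arrays did not overlap, yet the difference was short of the size rule. Spi1 was at 4.01 and 3.90 against 3.86 and 4.04, and Cx3cr1, the receptor for the chemokine fractalkine, at 6.96 and 6.67 against 6.77 and 6.87. In both of these genes the arrays of the pools overlapped. Adgre1, which encodes the classical mouse macrophage antigen F4/80, overlapped as well, at 6.08 and 5.85 against 5.98 and 6.09.

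Genes shared by leukocytes in general lay somewhat higher in the VEGF pool, though none passed the size rule. All 7 had positive differences, with a median of 0.20, and in 6 of them the arrays did not overlap. The largest were in genes of the actin cytoskeleton. Lcp1, which encodes the actin-bundling L-plastin, was at 7.35 and 7.25 in VEGF buds and 6.78 and 6.73 in control buds, a difference of 0.54 [0.47, 0.62]. Coro1a, the coronin of haematopoietic cells, was at 6.42 and 6.52 against 6.03 and 5.85, a difference of 0.53 [0.38, 0.67]. Both fell just short of the size rule, and each passed it once a single array was left out: Lcp1 with 0.59 without the second VEGF array, Coro1a with 0.62 without the first control array. Ptprc, the CD45 phosphatase of leukocytes, differed by 0.08, Cyth4 by 0.10, Cd53 by 0.18, Itgb2 by 0.20 and Laptm5 by 0.25. Over all 34 members, 12 had VEGF arrays wholly above and 7 wholly below the control arrays at any size, and 23.7% and 21.6% of all genes did so.

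Scavenger receptors and complement were level or split in direction. Mrc1, the mannose receptor, was at 8.42 ± 0.02 in VEGF buds and 8.27 ± 0.02 in control buds, and Stab1, which encodes the scavenger receptor stabilin-1, at 8.42 ± 0.02 and 8.40 ± 0.02. Both receptors are also known from sinusoidal endothelium. The C1q chains, which join into the protein that starts the classical complement pathway, did not move as one. C1qb was at 7.16 against 6.99, while C1qa was at 6.84 against 7.12 and C1qc at 6.61 against 6.75. The largest of these differences was that of C1qa with -0.27 [-0.44, -0.11], although C1qa and C1qc have no other protein-coding gene between them on chromosome 4.

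Ngp, the neutrophilic granule protein, was the member that was lower. It was at 3.08 and 3.26 in VEGF buds and 3.73 and 4.03 in control buds, a difference of -0.71 [-0.95, -0.47]. Without the second control array it was -0.56 and no longer passed the size rule. Another granule gene of neutrophils, Ltf for lactoferrin, was lower as well, at 3.31 and 3.40 against 4.04 and 3.99, a difference of -0.66, and was the 1 gene of 10 in the neutrophil list past the rule. S100a8, picked after its values were seen, differed by -0.31, and the other 8 ranged from -0.10 to 0.15. Ngp was under the background level in the VEGF pool, and with that level in place of its value it was at least 1.46-fold lower, which is short of the size rule. Ltf was just above it there, so both genes were dim.

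**Figure D2:**
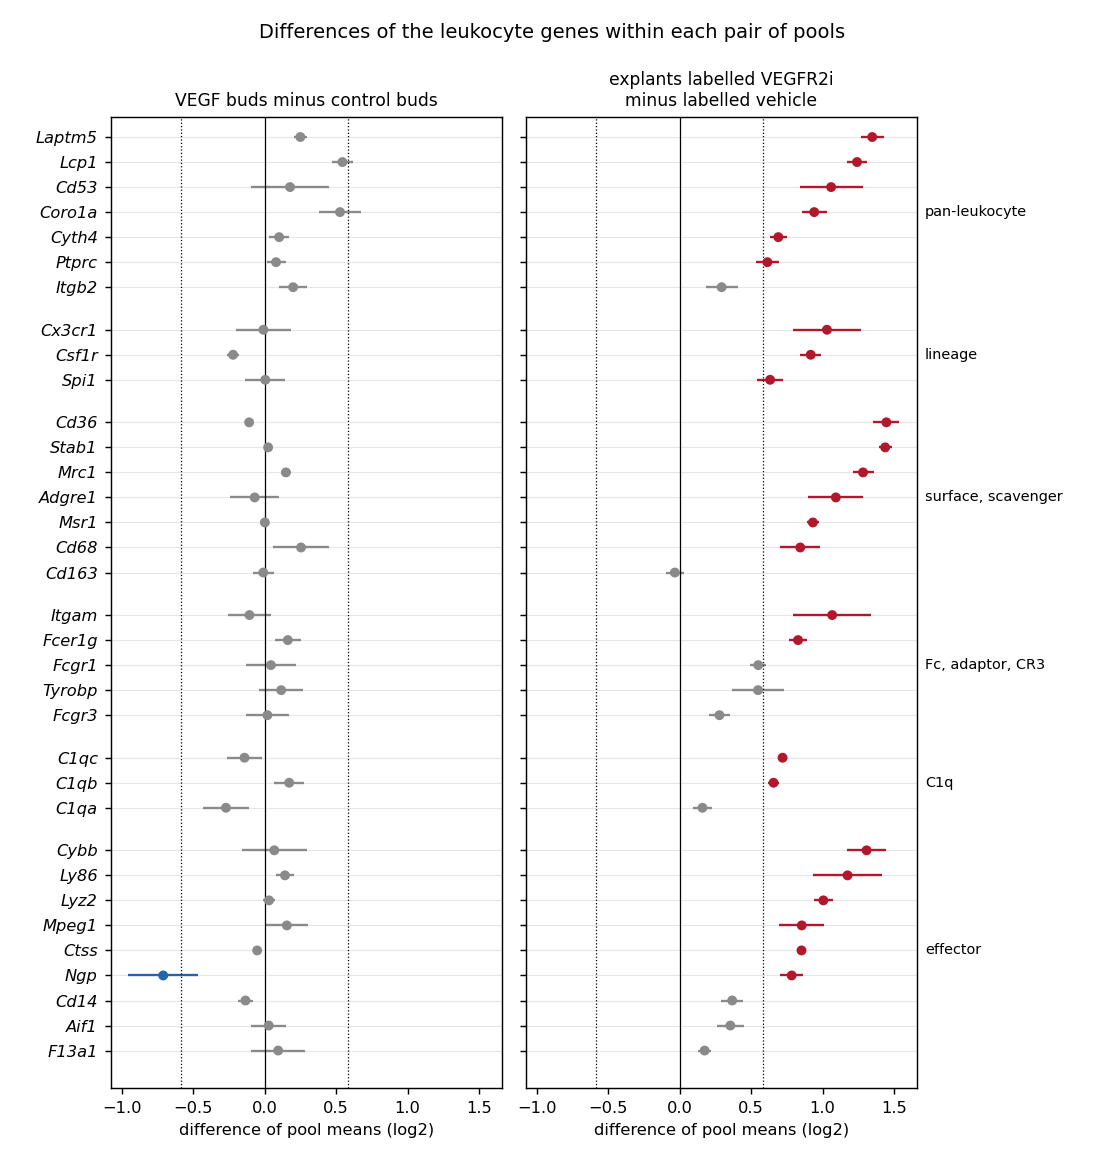
Difference of pool means for each member (x axis, log2) in VEGF against control buds (left) and in explants labelled VEGFR2i against vehicle (right). Points are differences, bars span the 4 pairs of arrays, dotted lines mark 1.5-fold in either direction, and colour marks genes past the size rule (red higher, blue lower, grey neither). On the left only Ngp is coloured, and on the right 25 of 34 genes are red with a median of 0.85.

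Other blood and vessel genes differed between the same bud pools. Of 10 erythroid genes 6 were higher in the VEGF pool, with a list median of 0.97, of 4 megakaryocyte genes 3, with a median of 0.71, and of 18 endothelial genes 6, with a median of 0.53. Summed on the linear scale, endothelial levels were 5424 to 5512 on the VEGF arrays and 3663 to 3711 on the control arrays, a ratio of 1.48, and those of the 34 members were 2983 to 3128 and 2845 to 2952, a ratio of 1.05. The part of red cells, platelets or endothelium in the differences of Lcp1 and Coro1a was not tested. Plek, which encodes pleckstrin of platelets and leukocytes, differed by 0.67 and was the 1 of 21 genes of immunoreceptor signalling past the rule. In the growth factor list, with the ligands Csf1 and Il34, 0 of 12 genes passed it. The count was also 0 of 19 for chemokines and their receptors, 0 of 19 for resident macrophage genes, 0 of 12 for myeloid transcription factors and 0 of 16 for inflammatory genes. Their largest differences were 0.35 for Kitl, 0.27 for Ccl9, 0.41 for Pf4, 0.38 for Irf5 and 0.23 for Cd40. Of 10 alternative activation genes, Arg1, for arginase, was lower (-0.64).

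The second comparison concerned buds cultured with VEGFR2i or vehicle. Of the 34 macrophage and leukocyte genes, 25 were higher in explants labelled VEGFR2i and none was lower. Because the list was chosen with earlier results of these data known, the count is a description only. The background was 1.82% of all genes higher and 0.371% lower. Among the 15143 genes above the background level in their higher pool it was 2.4% and 0.489%, with 25 members again. At 2-fold 12 members were higher, against 0.617% of genes higher and 0.0502% lower. The methods' t-test with 1.5-fold gave 25 members higher unadjusted (genes 1.69% higher, 0.346% lower) and 0 after Benjamini-Hochberg adjustment (0% and 0.00502%). The median difference was 0.85, a 1.80-fold level, against 0.00 over all genes. In 33 of 34 members both arrays of the pool labelled VEGFR2i lay above both of the pool labelled vehicle, as in 25.9% of all genes, while 25% lay the opposite way. The exception was Cd163 at background.

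All 3 lineage genes were higher. Csf1r was at 6.99 and 6.96 in explants labelled VEGFR2i and 6.01 and 6.12 in those labelled vehicle, a difference of 0.92 [0.84, 0.99] or 1.89-fold. Cx3cr1 was at 6.59 and 6.34 against 5.32 and 5.56, a difference of 1.03 [0.79, 1.27]. Spi1 was at 4.45 and 4.56 against 3.84 and 3.91, with a difference of 0.63, which without the second VEGFR2i array was 0.58, just under the rule. The vehicle arrays were lower throughout in all 3 genes.

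Of the 7 pan-leukocyte genes 6 were higher. Laptm5, a lysosomal membrane protein of blood cells, was at 7.94 and 7.99 against 6.67 and 6.56, a difference of 1.35 [1.27, 1.43]. Lcp1 was at 7.46 and 7.32 against 6.15 on both arrays, a difference of 1.24. Cd53, a tetraspanin of leukocytes whose promoter is printed above, was at 6.33 and 6.03 against 5.05 and 5.19, a difference of 1.06. In each of these genes both vehicle arrays lay below both VEGFR2i arrays. Coro1a differed by 0.94 and the cytohesin Cyth4 by 0.69. Ptprc differed by 0.61, and by 0.54, under the rule, without the first VEGFR2i array. Itgb2, the beta chain of the leukocyte integrins, differed by 0.29.

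Of 7 surface antigens and scavenger receptors 6 were higher, and 2 of them, Cd36 and Stab1, had the largest differences of the 34. Cd36, a receptor for oxidized lipoprotein and fatty acids, was at 7.24 and 7.16 against 5.71 and 5.80, a difference of 1.45 or 2.72-fold. Stab1 was at 7.10 and 7.03 against 5.63 and 5.62, a difference of 1.44 or 2.71-fold. Mrc1 was at 6.18 and 6.21 against 4.85 and 4.97, a difference of 1.28. These are the receptors of the list that endothelium is also known to make. Adgre1 is largely restricted to macrophages in the mouse. It was at 5.96 and 5.63 against 4.68 and 4.74, a difference of 1.09. Msr1, the class A scavenger receptor, was at 5.05 and 5.13 against 4.15 and 4.16, a difference of 0.93. Cd68, a glycoprotein of late endosomes, was at 7.52 and 7.41 against 6.53 and 6.71, a difference of 0.84. In all of them the lower VEGFR2i array was above the higher vehicle array, and Cd163 was the member of the group that did not pass.

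Of the 5 Fc receptor, adaptor and complement receptor genes 2 were higher. Itgam, the alpha chain of complement receptor 3, was at 5.31 and 4.97 against 4.17 and 3.97, a difference of 1.07 [0.79, 1.34]. Fcer1g, the signalling chain shared by Fc receptors, was at 6.83 on both arrays against 5.94 and 6.06, a difference of 0.83. Its counterpart Tyrobp differed by 0.55 and the high-affinity IgG receptor Fcgr1 by 0.55, both just short of 1.5-fold. Each passed the rule in some settings with 1 array left out: Tyrobp with 0.64 without the second VEGFR2i array or the second vehicle array, and Fcgr1 with 0.59 without the second VEGFR2i array. Fcgr3 was dim in all pools and differed by 0.28.

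The C1q chains were unequal here too. C1qc was at 6.51 and 6.50 against 5.76 and 5.81, a difference of 0.72, and C1qb at 6.80 and 6.88 against 6.18 and 6.19, a difference of 0.66. C1qa was at 7.48 and 7.49 against 7.38 and 7.27, a difference of 0.16 [0.10, 0.22]. All 3 were on the higher side without overlap of the arrays, and C1qa did not pass the size rule.

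Among effector genes 6 of 9 were higher. Cybb, the catalytic subunit of the phagocyte oxidase, was at 6.13 and 5.95 against 4.78 and 4.68, a difference of 1.31 [1.17, 1.45]. Ly86, an accessory protein of the innate receptor Cd180, was at 5.72 and 5.40 against 4.47 and 4.31, a difference of 1.17. Lyz2, lysozyme of macrophages and granulocytes, was at 8.49 and 8.44 against 7.42 and 7.50, a difference of 1.00. The vehicle arrays were below the VEGFR2i arrays in all of them. The pore-forming Mpeg1 and the cathepsin gene Ctss each differed by 0.85, and Ngp by 0.78. Short of the rule were Cd14, a coreceptor for bacterial lipopolysaccharide, with 0.37, the actin-binding Aif1 with 0.35 and F13a1, the catalytic chain of clotting factor XIII, with 0.17.

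Endothelial levels moved with this result. Summed over 18 endothelial genes they were 2456 to 2471 on the VEGFR2i arrays and 485 to 507 on the vehicle arrays, a ratio of 4.97, and all 18 were on the higher side without overlap. The 34 members summed to 2897 to 3033 and 1560 to 1591, a ratio of 1.88. Of 7 pericyte genes 5 were higher, with a median of 0.88. Without Stab1, Mrc1, Cd36, F13a1 and Ngp, which endothelium, platelets or granulocytes are also known to express, 21 of 29 members were higher with a median of 0.84. The 29 were not cleared of all shared genes, since Lyz2, also of granulocytes, stayed among them. For these members, the part of endothelial or pericyte RNA in the differences was not tested.

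Genes of related pathways outside the list had a few higher members each. Of 21 genes of immunoreceptor signalling and the haematopoietic cytoskeleton, 5 were higher, with the largest differences in Plek (1.10), Nckap1l (1.08), the inositol phosphatase gene Inpp5d (1.01) and Vav1 (0.68), and with a list median of 0.26. Of 19 resident macrophage genes, Dab2 (0.94), Ms4a6c (0.93) and Hpgds (0.75) were higher, and the median was 0.20. Timd4, Vsig4 and Folr2, known markers of resident macrophages that were picked after their values were seen, were at 3.66 or less on every array. Most of that list was not so dim, with 13 to 15 of its 19 genes above background in each pool. Of 19 chemokine and receptor genes, Cxcr4 (2.53), Ccl3 (1.66) and Ccl9 (1.37) were higher, the receptor Cxcr4 being known from endothelium as well as leukocytes. Ccl3, which macrophages secrete, was at 7.11 and 7.07 against 5.24 and 5.61.

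The ligands of Csf1r did not pass the rule. Csf1 and Il34, both picked after their values were seen, differed by 0.21 and -0.06, while Kitl, which encodes stem cell factor, was the 1 gene of 12 that was higher (0.63). No gene of 12 myeloid transcription factors passed the rule, where Runx1 had the largest difference (0.52). The counts were also 0 of 16 for inflammatory genes, led by Ptgs2 with 0.58, and 0 of 10 for alternative activation, led by Chil3 with 0.21. Class II antigen presentation had 0 of 6, led by H2-Ab1 with 0.18. Il1b, Tnf and Il6, picked after their values were seen, were between 2.70 and 3.95 on all arrays. Of the 16 inflammatory genes, 5 to 7 were above background in each pool. Lysosomal genes, which every cell uses, had 0 of 17 past the rule and a median of 0.16, and Olfml3 (0.77) was the 1 of 7 microglia genes that was higher. Genes of other blood cells were as follows: 0 of 9 T and NK cell genes, 0 of 5 B cell genes, 0 of 10 neutrophil genes, 0 of 7 mast cell genes and 0 of 4 megakaryocyte genes passed the rule. The largest differences in those lists were -0.16 for Cd2, -0.07 for Blk, 0.35 for Ltf, -0.10 for Fcer1a and -0.17 for Treml1. Of 10 erythroid genes the embryonic globin genes Hbb-y (2.23) and Hba-x (1.62) passed on the higher side.

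**Figure D3:**
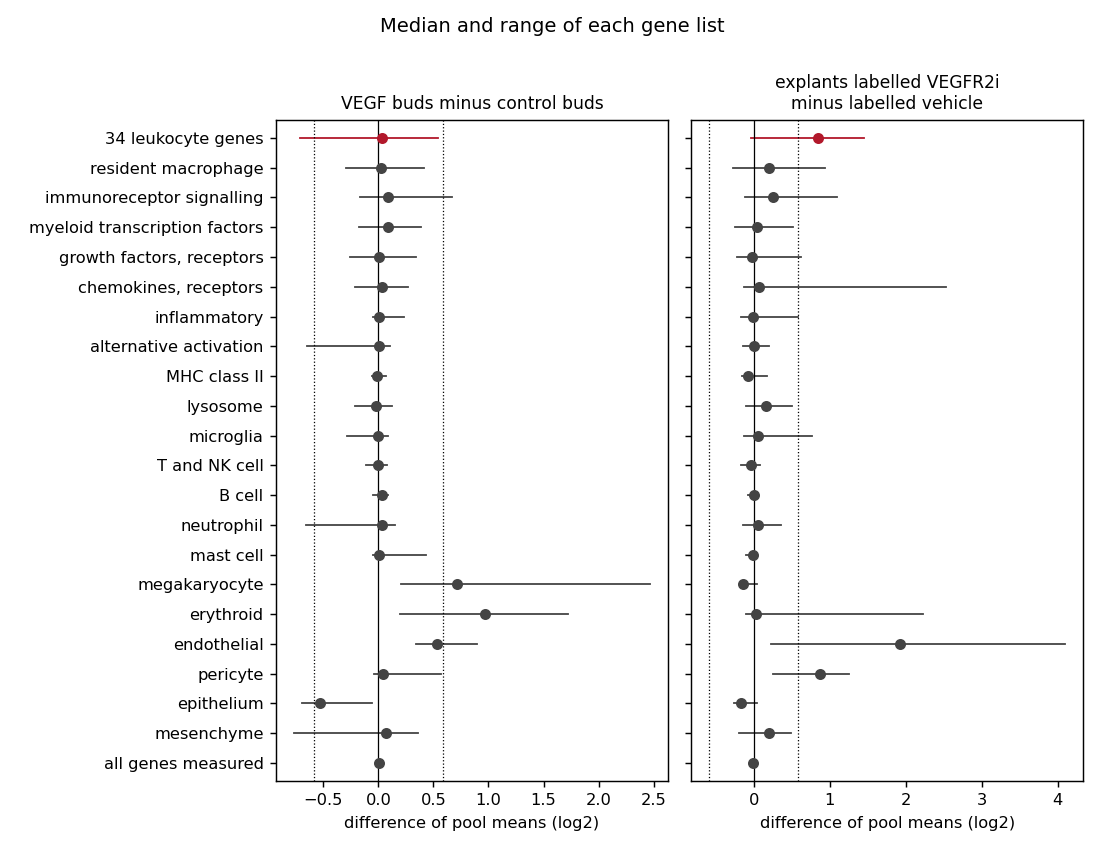
Median (point) and range (line) of the difference of pool means (x axis, log2) over each gene list, for VEGF against control buds (left) and explants labelled VEGFR2i against vehicle (right). Dotted lines mark 1.5-fold in either direction, the 34 members are in red, and all 19938 genes are shown by their median only. On the right the members (median 0.85), pericyte genes (0.88) and endothelial genes (1.92) have medians past the dotted line, and on the left megakaryocyte (0.71) and erythroid genes (0.97) do.

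The explants were also compared with the fresh buds, from which they differ in genotype, time in culture and treatment. The array medians of the explants lay 0.22 above those of the buds, the median gene was 0.16 higher, and no source used here says whether the sets were normalized together. A member was counted when the mean of the explant arrays differed by at least 1.5-fold from that of the bud arrays and no explant array overlapped a bud array. By that rule 6 members (17.6%) were higher in the explants, against 17.8% of all genes, and 8 (23.5%) were lower, against 3.43%. After centring the arrays on their medians, 3 were higher (background 11.2%) and 12 lower (5.76%). After quantile normalization of the 8 arrays, 3 were higher (9.81%) and 13 lower (6.83%). Under no scaling was the share of the members on the higher side above that of all genes. Lyz2, Mpeg1 and Msr1 were higher and 8 members lower under all 3 scalings, while Cd68, Itgam and Cd14 passed only as deposited.

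The lowest relative to the buds was F13a1, known from resident macrophages and from megakaryocytes. It was at 7.73, 7.44, 7.54 and 7.45 on the bud arrays and at 3.71, 3.66, 3.53 and 3.48 on the explant arrays, a difference of -3.94. It was close to the background level in both explant pools. The megakaryocyte genes Ppbp, Itga2b, Gp9 and Treml1, 4 of 4 on that list, were lower as well, with Ppbp at 2.92 to 3.09 on the explant arrays, and their part in the level of F13a1 was not tested. Mrc1 was at 8.42 and 8.27 in the VEGF and control buds, 6.20 in explants labelled VEGFR2i and 4.91 in explants labelled vehicle, a difference of -2.79 between the sets. Stab1 was at 8.42, 8.40, 7.06 and 5.63 in the same order, a difference of -2.06. In both genes the vehicle pool was the lowest. Ly86 (-1.12), Csf1r (-1.11), Laptm5 (-0.88), Cx3cr1 (-0.87) and Fcgr1 (-0.60) completed the 8. These set differences average unlike explant pools. In that order, Ly86 to Fcgr1 differed from control buds by -0.46, -0.76, -0.08, -0.36 and -0.31 in explants labelled VEGFR2i. In explants labelled vehicle they differed by -1.64, -1.68, -1.43, -1.39 and -0.86. Of these genes, Csf1r alone was at least 1.5-fold below control buds in the pool labelled VEGFR2i. Lyve1, a hyaluronan receptor of resident macrophages and of lymphatic and some other endothelium, went the same way among the genes outside the list, at 7.34 and 6.94 in the buds and 4.38 and 4.10 in the explants. Of the 19 resident macrophage genes, 5 were lower and 2 higher between the sets, with a median of -0.14. Among all genes, 3.43% were lower and 17.8% higher.

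Of the members higher under every scaling, Lyz2 was at 6.45 and 6.42 in VEGF and control buds, 8.47 in explants labelled VEGFR2i and 7.46 in explants labelled vehicle, a difference of 1.53. Mpeg1 was at 4.39, 4.24, 6.47 and 5.62 in the same order, a difference of 1.73. Msr1, at 3.24 in both bud pools and thus at background there, was at 5.09 and 4.16 in the explants, at least 2.45-fold higher with the background level standing for the buds. Ptprc, which all leukocytes carry, was at 4.38, 4.30, 4.48 and 3.87, and did not pass the rule between the sets. Of 18 endothelial genes 15 were lower in the explants, with a median of -1.96. The part of endothelial RNA in the levels of Mrc1, Stab1 and Lyve1 was not tested.

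**Figure D4:**
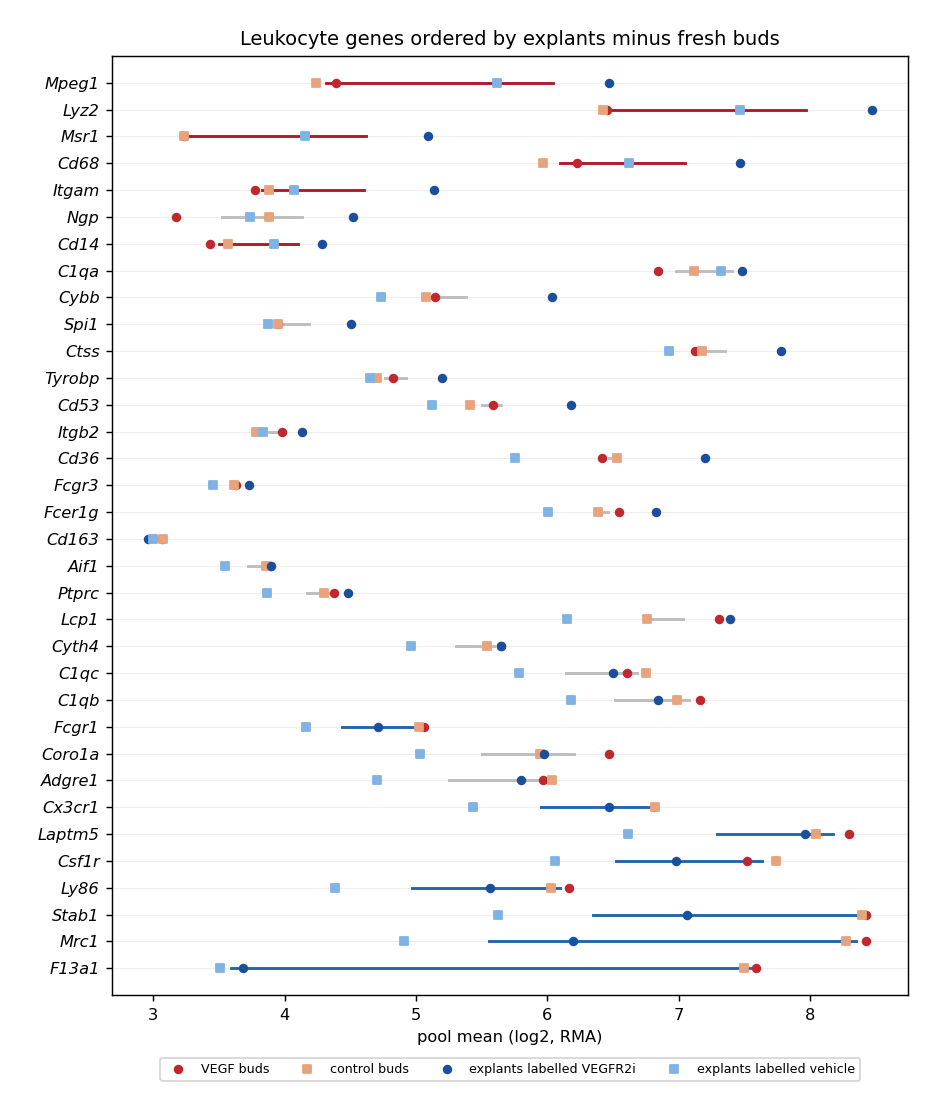
Pool means of the 34 genes (x axis, log2, RMA), ordered from the most lowered to the most raised in explants against fresh buds; symbols stand for the 4 pools as in the plot of levels by array. Each line joins the mean of the bud pools to the mean of the explant pools and is blue for the 8 lower genes, red for the 6 higher ones and grey otherwise. F13a1 (-3.94) and Mrc1 (-2.79) stand at the bottom and Mpeg1 (1.73) at the top.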

How the data were processed

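The assay was the Affymetrix mouse gene 1.0 ST array, with 2 arrays for each of 4 RNA pools. The authors deposited log2 values for each probe set and made them by RMA (Partek Genomic Suite 6.5), as the design text states. That they are log2 was inferred from their range, 2.41 to 13.57. RMA shrinks differences of dim genes and removes shifts common to most of them. No source used here says whether buds and explants were normalized together, so the 2 main comparisons stay within the buds or within the explants. Groups came from the labels alone.

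Of 35399 probe sets, 21789 had exactly 1 gene symbol in the platform annotation, 1621 had several and 11989 were unnamed here. The probe set with the highest mean stood for a gene, which left 19938 genes. Computation used Python 3.11.15, pandas 2.3.3, numpy 2.4.6 and scipy 1.17.1, and was tested on simulated data. With 1 pool per condition no test was made, so calls rest on 1.5-fold and on arrays that do not overlap. The number of arrays limits the precision. The methods' t-test over arrays was run as an alternative. Members, lists and rules were chosen with earlier results of these data known. Named genes were the members, Kdr, Pecam1 and Cdh5, and per other list up to 4 genes past the size rule with the largest differences, or otherwise the 1 gene with the largest. Genes named outside that rule are marked in the report as picked after their values were seen. A pool under the background level was set to that level where a difference is given as "at least". The other alternatives were 2-fold, median centring, quantile normalization, a filter on dim genes, averaged probe sets, leaving out each array and leaving out 5 members shared with other cells.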

Additional observations from a re-analysis of the deposited data

How the results depend on the processing

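With 1 pool per condition these alternatives show only how calls depend on processing. In the buds, 1 member was lower by the size rule, and the count became 0 at 2-fold (background 0.191%), 0 without Ngp and the other 4 genes shared with endothelium, platelets or granulocytes, and 0 by the methods' t-test over arrays, both unadjusted and after Benjamini-Hochberg adjustment. Leaving out each array in turn gave 0 to 1 lower and 0 to 1 higher. In the explants, 25 members were higher, 12 at 2-fold (background 0.617%). The methods' t-test, which here measures hybridization error alone, gave 25 without adjustment and 0 after Benjamini-Hochberg adjustment. Leaving out each array gave 24 to 26, and 23 of the 25 were called without each array. Median centring, quantile normalization, the filter on dim genes and averaging of probe sets left that count at 25. Between explants and buds, 6 members were higher (background 17.8%), or 3 with arrays centred (11.2%) and 3 after quantile normalization (9.81%). On the lower side were 8 (background 3.43%), or 12 with arrays centred (5.76%) and 13 after quantile normalization (6.83%). No member's call reversed. No paired analysis was possible because each group is 1 pool and its arrays are technical repeats. Levels near 3.4, the background, set the lower limit of what could differ.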

Other observations

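Several lysosomal, chemokine and inflammatory genes outside the 34 also differed between explants and fresh buds, as values of single pools with arrays that did not overlap. Gpnmb, a glycoprotein of lysosomes and melanosomes in phagocytes and pigment cells, was at 3.20 and 3.19 in VEGF and control buds and at 7.22 and 6.81 in explants labelled VEGFR2i and vehicle, and as the buds were at background it was at least 12.8-fold higher in the explants. Of 17 lysosomal genes 9 were higher in the explants, with a median of 0.67, among them Cd63 (1.17), the cathepsin gene Ctsl (1.06) and Ctsh (0.96). Of the chemokine list 5 of 19 were higher, with Ccl3 (2.61), Ccl9 (1.39) and Cxcl10 (1.36) among them and Cxcl16, at background in the buds, at least 2.99-fold higher, and Ccl24 (-0.61), picked after its values were seen, was lower. Ptgs2, the inducible cyclooxygenase, was at 3.32 and 3.21 in the buds and 5.69 and 5.10 in the explants, at least 4.18-fold higher, since the buds were at background. Of the inflammatory list 3 of 16 were higher and 1 lower. The median difference was 0.16 for that list and 0.14 for the chemokine list, against 0.16 over all genes. The background was 17.8% of all genes higher and 3.43% lower, and the scaling between the sets is unknown.

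Of 7 mast cell genes 2 were lower in the explants. Cpa3, the carboxypeptidase of mast cells, was at 5.36 and 4.93 on the VEGF arrays and 4.73 and 4.70 on the control arrays, and between 2.90 and 3.04 on all explant arrays, which is under the background level. Hdc, the enzyme that makes histamine, was at 5.07 and 4.88 in the bud pools and 3.49 in both explant pools. The other 5 genes of the list were at 3.55 or less on every array.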
